A study of Mus musculus with 5 samples.

Results

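A set of 10 genes that mark the endothelium, the cells that line blood and lymph vessels, was followed through mouse small cell lung cancers given LSN or vehicle. The series names its drug as an Aurora A kinase inhibitor, a blocker of a kinase of mitosis, and the labels write LSN for the treatment. The members were the rows of the deposited count table named Adgrf5, Cldn5, Cdh5, Pecam1, Kdr, Tek, Tie1, Vwf, Egfl7 and Emcn, 10 of 54532 rows. All 10 passed the filter on low counts, which left 17906 genes. The bulk RNA-seq series held 3 LSN and 2 vehicle lung tumours of the genotype RPP, whose letters the labels do not expand, and both groups carried it. The labels give no dose, length of treatment, animal age or animal per tumour, and p-values therefore reflect only how far these samples scatter, which may be technical. The labels call the cell type tumour cell and the design text speaks of primary cells, but the growth protocol describes tumours frozen at necropsy, and endothelial genes were counted in every tumour. The members were chosen by their read counts in LSN and vehicle tumours, with the difference of Adgrf5 and Cldn5 already known, so that all member values in that contrast are a description with no test.

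Endothelial cells hold together through adherens junctions built on VE-cadherin and through tight junctions that contain claudin 5. Their growth and rest are set by receptor tyrosine kinases, the VEGF receptors and the angiopoietin receptors of the TIE family. In the lung, capillary endothelium lies against the alveolar epithelium across a thin shared matrix, and in tumours new vessels sprout from vessels nearby. ETS transcription factors such as ERG act at many endothelial promoters and enhancers.

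Total counts were 17870505, 19766604 and 19516606 in LSN tumours 1, 2 and 3 and 17804648 and 17439049 in vehicle tumours 1 and 2. The members had between 55 and 10077 counts per tumour, far above the floor of 3 counts, which corresponded to 0.159 to 0.167 CPM (counts scaled to a common library size) and covers counting error only. By the quasi-likelihood test of edgeR with Benjamini-Hochberg adjustment, 0 of the 17906 genes differed between LSN and vehicle at an adjusted p of 0.05, the smallest being 0.9996, and limma-voom also called 0. At an unadjusted p under 0.05, edgeR had 574 genes lower and 190 higher with LSN, and limma-voom had 858 in all. DESeq2, which the protocol names, called 100 of 18547 genes (0.539%), 86 lower and 14 higher.

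RefSeq promoters of the build GRCm38.p6 were on file for 7 of the 10 members, with 10 promoters among them. Shown here are the 250 bases before the start for the 2 members with the largest differences between groups, Adgrf5 and Cldn5, and for Tek and Kdr, which had the smallest differences among the lower members with a promoter. Sequences run 5′ to 3′ on the strand of the gene, and capitals mark matches on either strand to the ETS cores CAGGAA and CCGGAA, the SOX core ACAATG and the KLF core CACACCC. No marked match overlaps another.
Adgrf5, chr17:43360181-43360430, plus strand: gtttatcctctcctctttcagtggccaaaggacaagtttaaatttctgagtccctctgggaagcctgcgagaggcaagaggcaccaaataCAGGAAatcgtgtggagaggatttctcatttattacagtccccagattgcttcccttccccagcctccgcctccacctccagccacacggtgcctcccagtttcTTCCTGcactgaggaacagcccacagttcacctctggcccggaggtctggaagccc
Cldn5, chr16:18776597-18776846, plus strand: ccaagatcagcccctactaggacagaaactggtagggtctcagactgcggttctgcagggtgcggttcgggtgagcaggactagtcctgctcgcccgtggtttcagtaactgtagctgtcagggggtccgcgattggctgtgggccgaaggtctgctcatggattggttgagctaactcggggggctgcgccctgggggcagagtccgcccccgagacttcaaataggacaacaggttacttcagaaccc
Tek, chr4:94739039-94739288, plus strand: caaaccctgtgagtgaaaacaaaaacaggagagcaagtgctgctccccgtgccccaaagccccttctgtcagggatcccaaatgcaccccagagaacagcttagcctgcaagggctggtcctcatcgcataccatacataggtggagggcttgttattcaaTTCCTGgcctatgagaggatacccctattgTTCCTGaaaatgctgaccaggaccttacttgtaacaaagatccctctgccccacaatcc
Kdr, chr5:75978456-75978705, minus strand: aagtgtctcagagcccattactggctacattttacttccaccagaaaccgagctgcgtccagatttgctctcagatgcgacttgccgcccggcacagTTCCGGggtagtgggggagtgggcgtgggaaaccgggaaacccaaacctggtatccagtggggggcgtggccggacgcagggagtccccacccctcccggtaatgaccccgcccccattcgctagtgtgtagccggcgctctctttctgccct
The core CAGGAA stood in 7 of the 10 member promoters, which belong to 5 of the 7 genes, and in 25.7% of all 32851 promoters of the same length. CCGGAA stood in 1 of 10 and in 12.0% of all. The KLF core stood in 1 member promoter, that of Tie1, against 6.9% of all, and the SOX core in 0 of 10, against 10.7% of all. The Cldn5 window held none of the 4 motifs, and a link of motifs to the differences between LSN and vehicle was not tested. These matches describe the letters only.

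Of the 10 members, 9 were lower in every LSN tumour than in both vehicle tumours, whereas Vwf overlapped between the groups. Over all tested genes, 10.4% lay below both vehicle tumours in every LSN tumour and 46.8% had a log2 fold change below 0. The median log2 fold change of LSN over vehicle was -1.66 over the 10 members and 0.03 over all tested genes. In bulk tissue, fewer endothelial cells and less RNA of these genes per cell cannot be told apart. DESeq2 called 2 members lower, Adgrf5 and Cldn5, against 0.464% of its genes, and 0 higher, against 0.0755%. The adjusted p values of edgeR left 0 members past the threshold, and 7 were lower at an unadjusted p under 0.05, against 3.21% of its genes. Since the members were chosen with this contrast known, nothing is read from these counts. Without vehicle tumour 2, DESeq2 called 0 members and 36 of 21468 genes in all, and without vehicle tumour 1 it called Cdh5, Cldn5 and Pecam1 and 140 of 18116 genes in all.

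**Figure D1:**
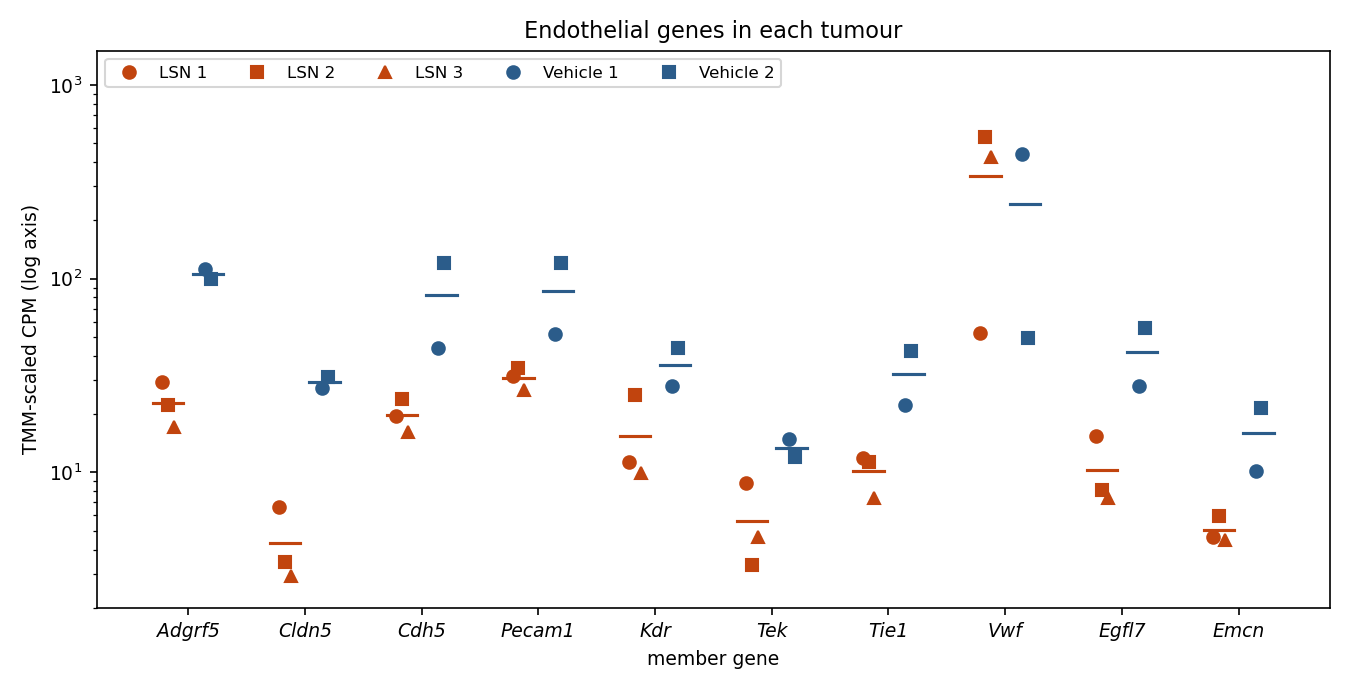
TMM-scaled CPM (log axis) of each member in the 3 LSN tumours (orange) and the 2 vehicle tumours (blue), with symbols for the tumour number and lines at the group means. For 9 genes all orange points lie below both blue points, and Vwf is high in LSN tumours 2 and 3 and vehicle tumour 1.

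Among the junction genes, Cldn5 (chromosome 16, 18776847 to 18778262, plus strand), which encodes the main claudin of endothelial tight junctions, had 6.63, 3.43 and 2.91 CPM in LSN tumours 1, 2 and 3, against 27.3 and 31.0 CPM in vehicle tumours 1 and 2. The lowest vehicle tumour was 4.12 times the highest LSN tumour, and the vehicle tumours lay close together. The log2 fold change was -2.75 ± 0.50 (SE). Cdh5 (chromosome 8, 104101625 to 104144511, plus strand), the gene of VE-cadherin, had 19.5, 23.8 and 16.3 CPM with LSN, against 43.9 and 120 CPM with vehicle. Its groups did not overlap, but the vehicle tumours differed 2.74-fold between themselves. The log2 fold change was -2.05 ± 0.48 (SE). Pecam1 (chromosome 11, 106654217 to 106750628, minus strand), an adhesion molecule of endothelial contacts that leukocytes and platelets also carry, had 31.4, 34.5 and 26.5 CPM with LSN, against 51.6 and 121 CPM with vehicle. The LSN tumours were alike, and vehicle tumour 1 lay nearer to them than to vehicle tumour 2. The log2 fold change was -1.49 ± 0.41 (SE).

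Of the receptors, Adgrf5 (chromosome 17, 43360451 to 43459557, plus strand), an adhesion G protein-coupled receptor of endothelium that in the mouse also acts in alveolar type 2 cells to limit the surfactant pool, had 29.2, 22.2 and 17.1 CPM in LSN tumours 1, 2 and 3, against 113 and 99.6 CPM in vehicle tumours 1 and 2. The groups stood apart by a factor of 3.42 between the lowest vehicle and the highest LSN tumour. Its log2 fold change was -2.22 ± 0.31 (SE), the smallest error among the members. Kdr (chromosome 5, 75932827 to 75978458, minus strand), the gene of VEGF receptor 2, had 11.3, 25.0 and 9.95 CPM with LSN, against 27.8 and 43.8 CPM with vehicle. LSN tumour 2 came close to vehicle tumour 1, a gap of 1.11-fold, and the log2 fold change was -1.21 ± 0.52 (SE). Tek (chromosome 4, 94739289 to 94874976, plus strand), the gene of the angiopoietin receptor TIE2, had 8.78, 3.32 and 4.66 CPM with LSN, against 14.9 and 11.9 CPM with vehicle, a log2 fold change of -1.26 ± 0.57 (SE). Tie1 (chromosome 4, 118471191 to 118490061, minus strand), the partner receptor of TIE2, had 11.9, 11.3 and 7.41 CPM with LSN, against 22.2 and 42.2 CPM with vehicle, a log2 fold change of -1.66 ± 0.44 (SE). Within LSN tumours Tek was highest in tumour 1 and Kdr in tumour 2, while Tie1 was nearly level in both.

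**Figure D2:**
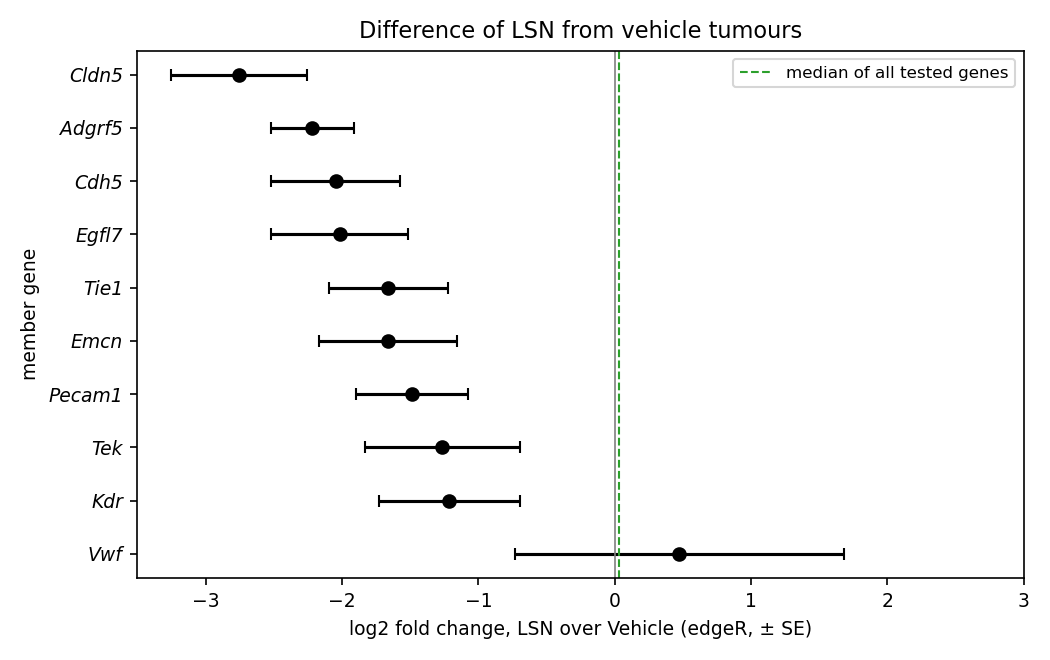
Log2 fold change of LSN over vehicle for each member (edgeR, horizontal axis, bars are ± SE), with the median of all tested genes dashed. The 9 lower members lie between -2.75 and -1.21, and Vwf at 0.47 has the widest bar.

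The secreted and surface products followed the same order of groups, with the exception of Vwf. Egfl7 (chromosome 2, 26580014 to 26593120, plus strand), a secreted protein of the vessel wall, had 15.5, 8.15 and 7.41 CPM with LSN, against 28.0 and 55.8 CPM with vehicle, a log2 fold change of -2.02 ± 0.50 (SE). Of its 3581 exonic bases, 401 overlap exons of other genes, among them Agpat2, so that reads there may be shared in an unstranded library. Emcn (chromosome 3, 137341067 to 137432185, plus strand), a mucin-like surface protein of capillaries and veins, had 4.64, 5.95 and 4.50 CPM with LSN, against 10.2 and 21.6 CPM with vehicle, a log2 fold change of -1.66 ± 0.51 (SE). Vwf (chromosome 6, 125546774 to 125686679, plus strand) encodes the clotting factor that endothelium stores in granules and platelets also carry. It had 52.4, 540 and 425 CPM in LSN tumours 1, 2 and 3, against 439 and 49.5 CPM in vehicle tumours 1 and 2. The groups overlapped fully, with high and low tumours in each. Its log2 fold change was 0.47 ± 1.21 (SE), and it was -0.37 without vehicle tumour 2 and 2.79 without vehicle tumour 1.

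Levels of different genes were compared per length, as CPM per kilobase of the deposited exonic length, which equalled that of GENCODE M21 for each member. In LSN tumours the order of mean levels ran from Vwf (21.1 ± 15.9, SD, n = 3) over Pecam1 (4.94 ± 0.647), Cdh5 (4.73 ± 0.907), Cldn5 (3.05 ± 1.42), Egfl7 (2.89 ± 1.24), Adgrf5 (2.53 ± 0.671), Tie1 (2.07 ± 0.492), Kdr (1.71 ± 0.923) and Tek (1.19 ± 0.604) to Emcn (0.930 ± 0.148). In vehicle tumours it ran from Cldn5 (20.6 ± 1.86, SD, n = 2) over Cdh5 (19.5 ± 12.8), Vwf (15.2 ± 17.1), Pecam1 (13.8 ± 7.87), Adgrf5 (11.8 ± 1.03), Egfl7 (11.7 ± 5.49), Tie1 (6.55 ± 2.87), Kdr (3.96 ± 1.25) and Emcn (2.94 ± 1.49) to Tek (2.85 ± 0.443). Cldn5 thus stood at rank 4 with LSN and at rank 1 with vehicle. Among LSN tumours the neighbours Vwf and Pecam1, and Cdh5 and Cldn5, were the pairs whose means lay further apart than the larger of their SDs. Among vehicle tumours no neighbours did.

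The members did not move as one block within a group. In vehicle tumours, the level in tumour 2 was 2.74 times that in tumour 1 for Cdh5, 2.34 times for Pecam1 and 2.11 times for Emcn. The same ratio was 1.14 for Cldn5, 0.883 for Adgrf5 and 0.802 for Tek, whose levels were close in both vehicle tumours. Within LSN, the highest tumour was 1.30 times the lowest for Pecam1 and 1.32 times for Emcn, against 2.51 times for Kdr, 2.64 times for Tek and 10.3 times for Vwf. Pecam1 and Emcn were also the closest pair by the root mean square difference of their centred log2 CPM over the 5 tumours, at 0.13. Adgrf5 had its smallest difference with Cldn5, at 0.35, while Vwf differed from each other member by 1.85 to 2.52.

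Relative to Pecam1 in the same tumour, Adgrf5 stood at 0.930, 0.645 and 0.646 in LSN tumours 1, 2 and 3, against 2.19 and 0.824 in vehicle tumours 1 and 2. These ratios overlapped between the groups, with vehicle tumour 1 far above the others. Cldn5 stood at 0.211, 0.0995 and 0.110 times Pecam1 with LSN, against 0.530 and 0.257 with vehicle. Here the LSN tumours were all below, though LSN tumour 1 came close to vehicle tumour 2. With Cdh5 as the reference the groups overlapped. Cldn5 stood at 0.340, 0.144 and 0.179 times Cdh5 with LSN, against 0.622 and 0.258 with vehicle. Vwf stood at 1.67, 15.7 and 16.0 times Pecam1 with LSN, against 8.51 and 0.409 with vehicle. Tek over Tie1, the pair of TIE receptors, was 0.740, 0.295 and 0.629 with LSN, against 0.671 and 0.283 with vehicle, a low and a high ratio in both groups. After removal of the mean of the other 9 members in each tumour, a set chosen once Vwf was seen to stand apart, Tie1 kept the narrowest range over tumours, 0.42 on the log2 scale, and Cldn5 the widest, 1.56.

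**Figure D3:**
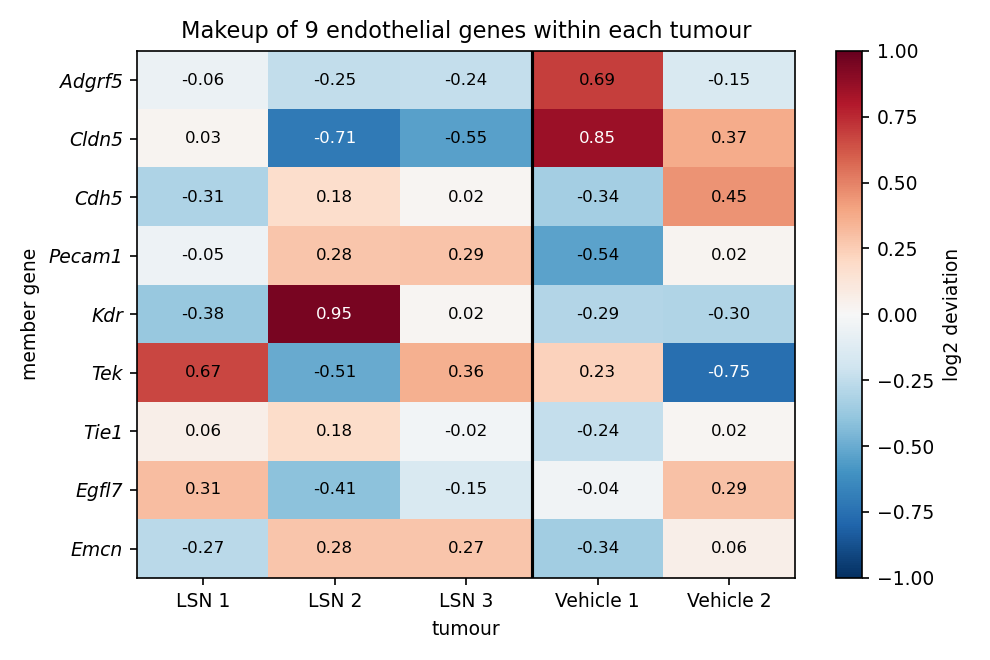
Log2 CPM of 9 members (Vwf left out) minus their mean in the same tumour, centred per gene (rows, members; columns, tumours; colour, log2 deviation). Cldn5 reads 0.85 in vehicle tumour 1 and -0.71 in LSN tumour 2, Kdr reads 0.95 in LSN tumour 2, and Tie1 stays within -0.24 and 0.18.

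Vwf was set beside markers of platelets and megakaryocytes, the other cells known to make it. Of the 12 markers on that list 6 passed the filter, and Treml1, Gp6 and Gp1bb were among those at 0 in at least 1 tumour. Their summed level was 23.4 to 74.5 CPM with LSN and 30.3 to 31.8 CPM with vehicle. Itgb3, which activated endothelium also carries, alone had 18.3, 62.4 and 9.32 CPM with LSN, against 17.8 and 19.6 CPM with vehicle. Pf4, a platelet chemokine, had 1.49, 1.77 and 4.66 CPM with LSN, against 1.51 and 2.57 CPM with vehicle, and did not share the pattern of Vwf. Gp1ba, also on that list, had 4.09, 4.61 and 2.22 CPM with LSN, against 4.30 and 0.893 CPM with vehicle. Like Vwf it was lowest in vehicle tumour 2, but unlike Vwf it was high in LSN tumour 1. After Vwf was seen to stand apart, its 3 nearest genes among 14414 with a mean of at least 1 CPM were listed. They were Fam83g, with a root mean square difference of 0.15 over the 5 tumours, Galnt3, an enzyme that starts O-linked sugar chains, at 0.19, and Palmd, also at 0.19. Palmd had 7.51, 102 and 64.6 CPM with LSN, against 80.3 and 10.2 CPM with vehicle, high and low in the same tumours as Vwf.

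**Figure D4:**
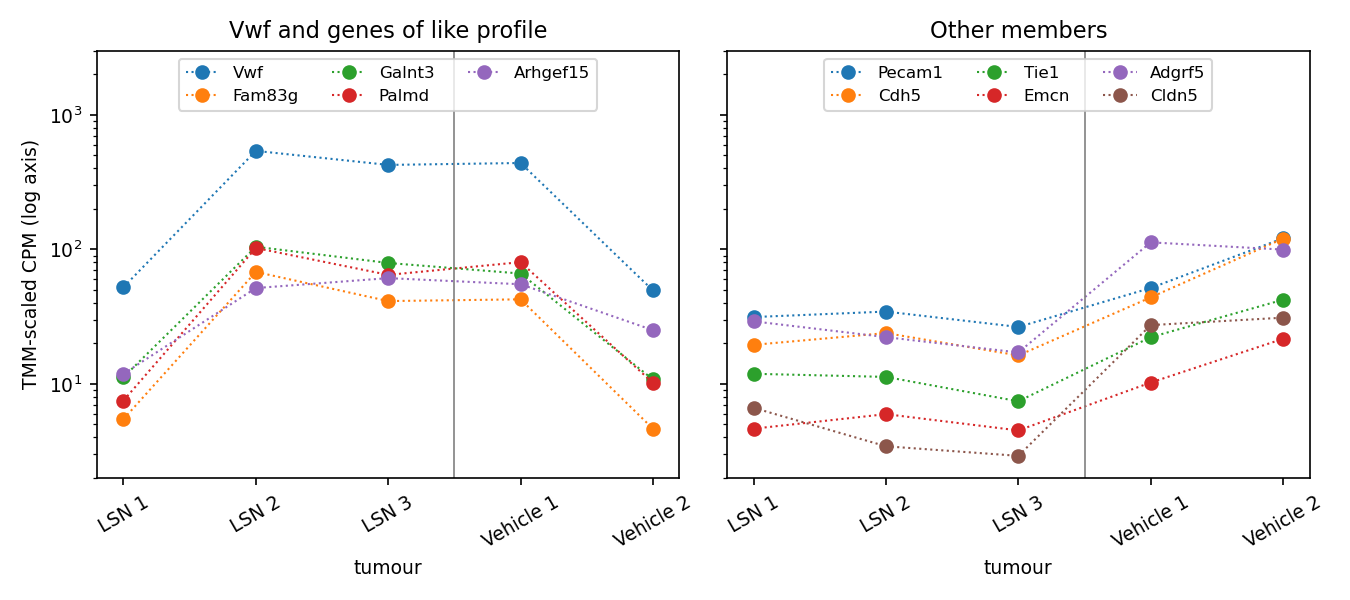
TMM-scaled CPM (log axis) in each tumour of Vwf with 4 genes chosen after their values were seen (left) and of 6 other members (right). The left genes are high in LSN tumours 2 and 3 and vehicle tumour 1, and the right genes are highest in the vehicle tumours.

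For the mean profile of the 10 members, the 8 nearest of 14414 genes were Galm, Mfsd2a, Kdelr3, Ctla2a, Gpx8, Nos3, Akr1b8 and Tcim, with root mean square differences of 0.08 to 0.17. That mean included Vwf, which itself differed from it by 1.93, against 0.25 to 0.72 for the other members. Genes nearest to the mean without Vwf were not searched. Galm, an enzyme of galactose metabolism, had 1.60, 1.71 and 1.43 CPM with LSN, against 4.36 and 4.74 CPM with vehicle. Nos3, the endothelial nitric oxide synthase, had 2.43, 2.89 and 2.28 CPM with LSN, against 5.32 and 7.42 CPM with vehicle. Mfsd2a, a lipid transporter of brain endothelium in the mouse, had 1.27, 1.71 and 1.11 CPM with LSN, against 4.19 and 4.08 CPM with vehicle. All 3 genes were separated, meaning that no LSN tumour overlapped a vehicle tumour, in the direction of the 9 lower members. Their choice by likeness to the members made this likely beforehand, so nothing is read from it. Nearest to Adgrf5 alone were Cd59a, a complement inhibitor, at 0.11, Slco2a1, a prostaglandin transporter, at 0.14, and S100a6, a calcium-binding protein, at 0.16. Slco2a1 had 11.3, 9.06 and 7.20 CPM with LSN, against 42.8 and 31.6 CPM with vehicle. Nearest to Cldn5 alone were Cfap161 and Wdr63, both genes of motile cilia, at 0.19 and 0.23, and Lbp, a lipopolysaccharide-binding protein, at 0.19. Lbp had 8.12, 4.13 and 3.44 CPM with LSN, against 23.8 and 39.5 CPM with vehicle. These likenesses rest on 5 tumours.

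Further genes were taken from endothelial and pathway lists of 168 genes outside the members, of which 159 were tested. These lists include ligands and junction, haemostasis, leukocyte adhesion and BMP genes, not all of them particular to endothelium. By edgeR, 0 passed the adjusted threshold in either direction, and limma-voom called 0. At an unadjusted p under 0.05, edgeR had 38 lower and 0 higher, against 3.21% and 1.06% of all its genes. DESeq2 called 2 lower, Icam2 and Ephb4, and 0 higher, against 0.464% and 0.0755% of its genes. Every LSN tumour was below both vehicle tumours for 67 of the 159 and above both for 1, where all genes had 10.4% and 8.48%. The median log2 fold change of the 159 was -0.79, nearer to 0 than that of the members. The same shares of all genes apply to the list counts that follow. All lists were chosen with earlier results of these data known, so nothing is read from their counts.

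Of 26 further pan-endothelial genes, 24 had a log2 fold change below 0, with a median of -1.22, 20 were separated downward and 15 were lower at an unadjusted p under 0.05. Esam, an adhesion molecule of endothelial tight junctions, had 12.5, 7.77 and 9.48 CPM with LSN, against 23.5 and 53.4 CPM with vehicle, -1.95 ± 0.47 (SE) as a log2 fold change (edgeR adjusted p of 0.9996, DESeq2 adjusted p = 0.0673). S1pr1, a sphingosine 1-phosphate receptor, had 8.12, 9.59 and 6.25 CPM with LSN, against 18.2 and 40.4 CPM with vehicle, and was separated downward. Esam and S1pr1 were picked from their list by small p in this contrast, which favours separation. Icam2, an adhesion molecule for leukocytes, had 3.70, 2.68 and 2.28 CPM with LSN, against 8.82 and 14.6 CPM with vehicle (log2 fold change -2.02 ± 0.53 SE, DESeq2 adjusted p = 0.0283). Arhgef15, a guanine nucleotide exchange factor chosen after its values were seen, had 11.9, 51.6 and 61.1 CPM with LSN, against 55.0 and 25.1 CPM with vehicle, and overlapped.

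Endothelial transcription factors had a median of -0.62 over 20 tested genes, with 15 below 0, 8 separated downward and 4 lower at an unadjusted p under 0.05. Sox7, a factor of endothelial development, had 2.04, 1.71 and 1.06 CPM with LSN, against 5.06 and 6.59 CPM with vehicle, and Klf2, which responds to blood flow, had 8.50, 6.38 and 8.52 CPM with LSN, against 23.5 and 15.2 CPM with vehicle. Erg had 18.9, 9.06 and 14.3 CPM with LSN, against 22.2 and 19.0 CPM with vehicle, a log2 fold change of -0.54 ± 0.43 (SE). LSN tumour 1 and vehicle tumour 2 were nearly level for Erg. The ETS genes Fli1 and Ets1, chosen after their values were seen, overlapped, with log2 fold changes of 0.46 ± 0.48 and 0.29 ± 0.44 (SE), and both came below 0 when 1 tumour was left out (the lowest values were -0.04 and -0.03).

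Of the ligands, Vegfa, which binds VEGF receptor 2, had 61.0, 187 and 72.4 CPM with LSN, against 185 and 171 CPM with vehicle. It overlapped because LSN tumour 2, the LSN tumour highest in Kdr, was as high as the vehicle tumours. Angpt2, a TIE2 ligand made by endothelium, had 4.31, 9.97 and 7.36 CPM with LSN, against 11.7 and 23.4 CPM with vehicle. The 7 tested ligands had a median of -0.72 and 1 was separated downward. Among 9 receptors and partners the median was -0.80, with 3 separated downward, and it lay between -0.74 and -0.17 with 1 tumour left out, nearest to 0 without vehicle tumour 2. Flt1, the gene of VEGF receptor 1, had 12.6, 25.3 and 19.0 CPM with LSN, against 27.1 and 40.1 CPM with vehicle, and Flt4, the gene of VEGF receptor 3, had 6.63, 8.20 and 3.44 CPM with LSN, against 10.9 and 26.0 CPM with vehicle. Ptprb, a phosphatase that acts on TIE2 and VE-cadherin, had 26.1, 20.9 and 13.7 CPM with LSN, against 38.8 and 34.0 CPM with vehicle, with close vehicle tumours as for Tek.

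The other tight and adherens junction genes were split in direction. Of 17 tested on this list, 4 were separated downward and 1 upward. Those downward included Esam and also Mfsd2a, which is on the list although it encodes a lipid transporter. In all, 8 were below 0 and 9 above, with a median of 0.13. This median was -0.085 with limma-voom and lay between -0.16 and 0.44 with 1 tumour left out. Haemostasis and granule genes had a median of -0.89 over 17 genes, with 6 separated downward and 1 at an unadjusted p under 0.05. Tfpi, an inhibitor of clotting, had 3.48, 4.07 and 3.76 CPM with LSN, against 6.35 and 11.2 CPM with vehicle. It was separated downward, but it too was picked by small p. Leukocyte adhesion genes had a median of -0.72 over 7 tested genes with 3 separated downward, and Icam1 had 35.9, 12.5 and 20.9 CPM with LSN, against 37.2 and 109 CPM with vehicle. BMP and TGF-beta genes had a median of -0.94 over 11 tested genes with 4 separated downward, and the median was -0.65 with DESeq2 and -0.16 without vehicle tumour 1. Both named genes of this list were separated, but they were picked by small p in this contrast, which favours separation. Eng, a co-receptor of endothelium, had 22.6, 18.8 and 12.6 CPM with LSN, against 37.6 and 57.2 CPM with vehicle. Acvrl1, a receptor for BMP ligands, had a log2 fold change of -1.07 ± 0.38 (SE).

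Capillary, arterial, venous and lymphatic lists all had median log2 fold changes below 0, but the summed level of each overlapped between the groups. Sums with LSN were 358 to 429 CPM (general capillary), 242 to 436 (aerocyte), 305 to 634 (arterial), 63.9 to 240 (venous) and 359 to 555 (lymphatic). With vehicle they were, in the same order, 380 to 710, 382 to 554, 461 to 486, 127 to 217 and 394 to 633 CPM. General capillary genes of the lung had a median of -0.95 over 10 genes with 6 separated downward, and aerocyte genes, of the capillary cells that span alveoli, one of -0.84 over 11 with 5 separated downward. Gpihbp1, which anchors lipoprotein lipase in capillaries, had 4.91, 7.61 and 4.45 CPM with LSN, against 14.8 and 41.8 CPM with vehicle. Plvap, a protein of capillary diaphragms, had 27.8, 40.2 and 27.8 CPM with LSN, against 55.4 and 77.1 CPM with vehicle, a log2 fold change of -1.05 ± 0.31 (SE). Of the aerocyte list, Cyp4b1, a cytochrome P450, had 12.1, 1.02 and 5.29 CPM with LSN, against 39.1 and 44.2 CPM with vehicle. Emp2, a membrane protein also of alveolar type 1 cells, had 102, 122 and 111 CPM with LSN, against 163 and 160 CPM with vehicle. Both were separated, but they too were picked from their list by small p. The log2 fold changes were -2.76 ± 0.94 for Cyp4b1 and -0.53 ± 0.20 for Emp2 (SE).

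Arterial genes had a median of -0.76 over 14 with 5 separated downward, and Notch1, a receptor of arterial fate, had 13.9, 6.91 and 4.13 CPM with LSN, against 22.7 and 23.2 CPM with vehicle. Jag1, a Notch ligand, had a log2 fold change of -0.84 ± 0.37 (SE). Venous genes had a median of -0.94 over 8 with 3 separated downward. Ephb4, a receptor of venous endothelium, had 7.40, 6.75 and 4.45 CPM with LSN, against 19.6 and 22.1 CPM with vehicle (log2 fold change -1.75 ± 0.42 SE, DESeq2 adjusted p = 0.0199), and Prss23, a protease, had 10.1, 11.5 and 10.6 CPM with LSN, against 23.3 and 24.9 CPM with vehicle. Both genes were close within each group, but they too were picked from their list by small p, which favours such closeness. Lymphatic genes had a median of -1.63 over 8 tested with 4 separated downward. Lyve1, a hyaluronan receptor, had 8.67, 10.7 and 4.87 CPM with LSN, against 16.0 and 55.9 CPM with vehicle. Pdpn, which alveolar type 1 cells also express, had a log2 fold change of -1.67 ± 0.43 (SE). Genes of sprouting tip cells had a median of -0.79 over 16 with 8 separated downward, and Kcne3, a potassium channel subunit, had 0.387, 0.429 and 0.106 CPM with LSN, against 2.85 and 2.12 CPM with vehicle.

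Markers of normal lung and of red blood cells had median log2 fold changes below 0, as the members did. Alveolar type 2 markers were below 0 for 11 of 11 genes with a median of -2.41, and their summed level was 568 to 1596 CPM with LSN and 2837 to 7299 CPM with vehicle. Sftpc, a surfactant protein, had 779, 191 and 593 CPM with LSN, against 1528 and 3887 CPM with vehicle. Cxcl15, a lung chemokine, had 60.8, 15.9 and 40.3 CPM with LSN, against 186 and 431 CPM with vehicle (log2 fold change -2.98 ± 0.65 SE, DESeq2 adjusted p = 0.0141). LSN tumour 2 was lowest for both, whereas the lowest value of 8 members was in LSN tumour 3. Alveolar type 1 markers were below 0 for 10 of 10 with a median of -1.56 and summed levels of 335 to 794 CPM with LSN and 672 to 1300 CPM with vehicle, and LSN tumour 1 lay above vehicle tumour 1. Hopx had 16.8, 7.61 and 6.51 CPM with LSN, against 43.6 and 37.1 CPM with vehicle, and Ager had 81.6, 18.1 and 36.8 CPM with LSN, against 133 and 267 CPM with vehicle. Airway markers summed to 89.2 to 1213 CPM with LSN and 2944 to 6228 CPM with vehicle, with Bpifa1 at 0 in at least 1 tumour and Scgb1a1, a club cell secretory protein, at 428, 2.14 and 224 CPM with LSN, against 3688 and 2313 CPM with vehicle. None of these 3 lists had a gene past the adjusted threshold of edgeR, and 8, 5 and 0 genes were lower at an unadjusted p under 0.05. The part of normal lung in the levels of the members was not tested.

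Red blood cell markers summed to 10.99 to 328 CPM with LSN and 666 to 780 CPM with vehicle, and all 5 tested genes were separated downward. Hbb-bs, a haemoglobin gene with near-identical copies, had 164, 5.73 and 177 CPM with LSN, against 349 and 406 CPM with vehicle, and LSN tumour 2 was again lowest. Pericyte markers, of the cells that wrap capillaries, had a median of -0.85 over 12 genes with 7 separated downward, and Pdgfrb, their growth factor receptor, had 25.3, 25.8 and 17.3 CPM with LSN, against 27.4 and 47.8 CPM with vehicle. Their summed level overlapped, at 275 to 753 CPM with LSN and 347 to 566 CPM with vehicle. Fibroblast markers had a median of -0.80 over 11 genes with summed levels of 406 to 799 CPM with LSN and 716 to 1455 CPM with vehicle, and smooth muscle markers one of -0.81 over 6 with 83.7 to 97.4 CPM with LSN and 95.7 to 144 CPM with vehicle. The log2 fold changes were -3.00 for Col13a1, a collagen, and -1.34 for Dpt, a matrix protein, among fibroblast markers. They were -1.69 for Actg2 and -0.80 for Acta2, both smooth muscle actins, and -1.66 for Cox4i2 and -1.28 for Ndufa4l2 among pericyte markers.

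Leukocytes, which also carry Pecam1, showed another pattern between the groups. Their markers had a median of -0.27 over 9 genes, of which 0 were separated, and the median lay between -0.92 without vehicle tumour 1 and 0.91 without vehicle tumour 2. They had summed levels of 310 to 498 CPM with LSN and 231 to 780 CPM with vehicle. Ptprc, the gene of CD45, had 63.8, 27.5 and 59.3 CPM with LSN, against 21.8 and 75.4 CPM with vehicle. Within the vehicle group, tumour 2 was the higher for Ptprc and for the summed level, as it was for Pecam1. The part of leukocytes in the level of Pecam1 was not tested. Neuroendocrine tumour markers had a median of 0.47 over 14 genes, with 9 above 0 and summed levels of 7296 to 11000.4 CPM with LSN and 3455 to 8750 CPM with vehicle. Neurod1, a neuronal transcription factor, had 0.773, 0.429 and 0 CPM with LSN, against 37.3 and 11.1 CPM with vehicle (DESeq2 adjusted p = 0.000652, edgeR adjusted p of 0.9996). Syp, a synaptic vesicle protein, was higher in all LSN tumours, at 170, 120 and 114 CPM, against 92.8 and 84.0 CPM with vehicle. Neurod1 and Syp too were picked from their list by small p. The part of the tumour cell share in the levels of the members was not tested.

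**Figure D5:**
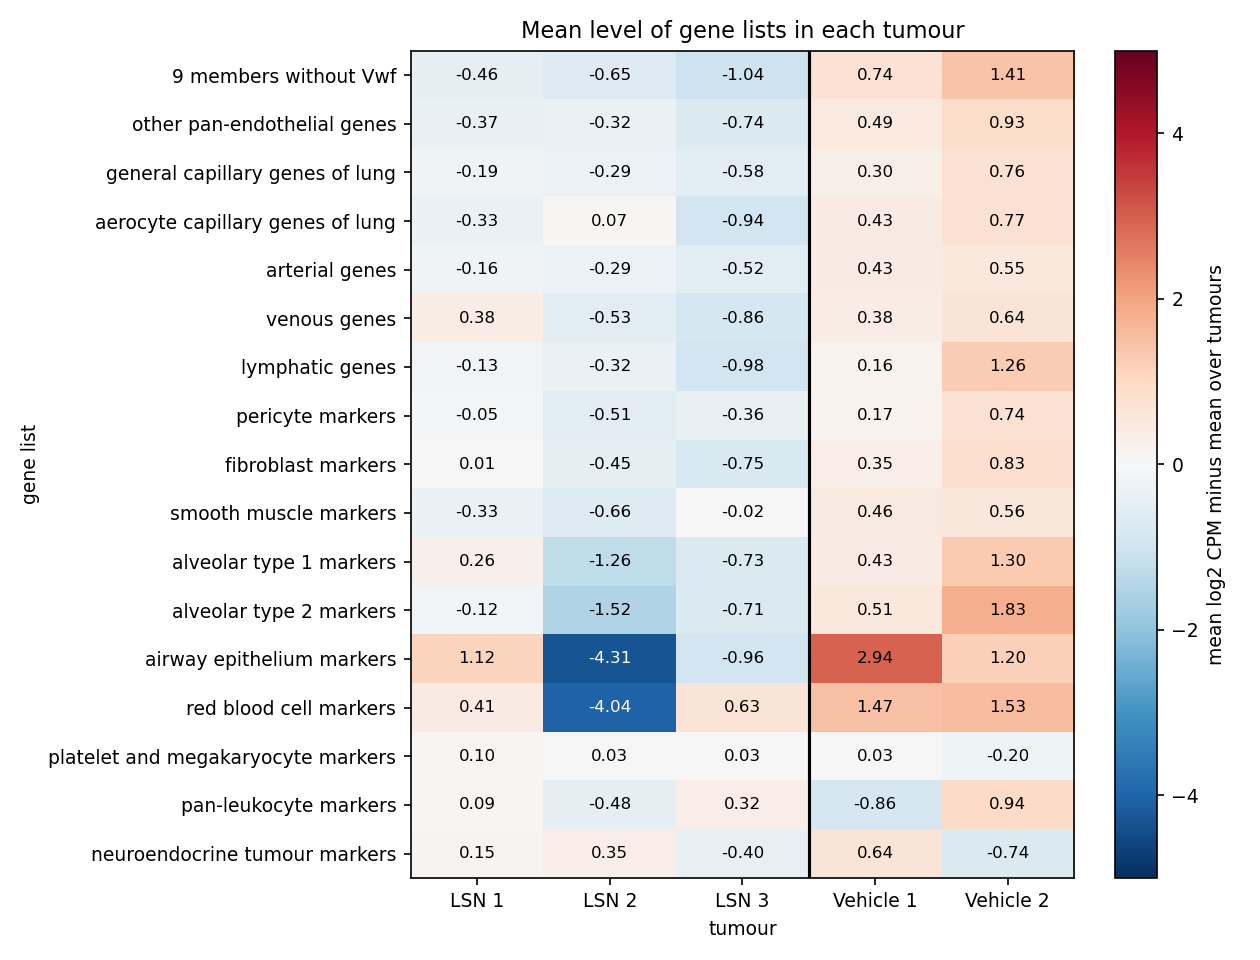
Mean log2 CPM of each gene list (rows) in each tumour (columns) minus its mean over the 5 tumours (colour and numbers). The 9 members read -0.46, -0.65 and -1.04 in the LSN tumours and 0.74 and 1.41 in the vehicle tumours, and the alveolar type 2 list reads -0.12, -1.52 and -0.71, against 0.51 and 1.83.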

How the data were processed

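For 5 tumours, the deposited table holds raw read counts of each gene. Per the labels' protocols, libraries were made with an unstranded kit, reads were mapped to mm10 with STAR and differential expression was computed with DESeq2. Neither the counting program nor the annotation is named in these sources. Coordinates and exonic lengths of the members, per the deposited table, equalled those of GENCODE M21.

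For LSN against vehicle, genes were kept by filterByExpr (minimum count 10, total 15), scaled by TMM and tested with edgeR's robust quasi-likelihood fit (version 4.0.16, R 4.3.3), with Benjamini-Hochberg adjustment over all tested genes at 0.05 and 3 residual degrees of freedom. The SE of a fold change is its size divided by the root of F. CPM are TMM-scaled, and centred log2 CPM use a prior count of 2. DESeq2 1.42.0 and limma 3.58.1 (voom), other scalings, filters, a prior count of 0.5 and omission of each tumour were alternatives. An exact permutation test of 3 against 2 tumours cannot go below 0.1. Tumours share no numbers or batch labels.

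The members and the 24 other lists were chosen with earlier results of these data known. Genes named are the members, the 2 per list with the smallest p and a mean of at least 1 CPM, those nearest in profile (8 to the members, 3 each to Adgrf5 and Cldn5), and 8 fixed genes; a gene that this rule names is not reported here. Separated means that every LSN tumour lay on one side of both vehicle tumours.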

Additional observations from a re-analysis of the deposited data

How the results depend on the processing

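The count of 9 members separated downward and the direction of each of these 9 held under RLE scaling, total counts and both other filters. Omission of a tumour cannot end a separation, and it raised the share of all genes separated downward to between 15.8% and 26.3%. With 1 tumour left out, the median of the members lay between -2.07 and -1.13, the second without vehicle tumour 2, and it was -1.66 over the 9 members other than Vwf. edgeR called 0 genes under every setting, DESeq2 100 of all genes and 2 of those on the other endothelial and pathway lists. DESeq2 without each tumour, added after seeing the data, called 0 to 3 members, while its calls over all genes ran from 36 of 21468 without vehicle tumour 2 to 483 of 17988 without LSN tumour 1. List medians also moved with 1 tumour left out: the ranges were -1.02 to -0.23 for ligands, -1.002 to -0.21 for leukocyte adhesion, -1.21 to -0.43 for tip cell, -1.21 to -0.53 for aerocyte, -1.84 to -0.92 for alveolar type 1, -1.18 to -0.36 for haemostasis, -2.05 to -0.70 for lymphatic, -1.07 to -0.28 for pericyte, -4.45 to -1.42 for airway, -2.99 to -1.38 for alveolar type 2 and 0.078 to 1.67 for neuroendocrine genes. Where 1 vehicle tumour remained, it was assumed to vary like the LSN tumours. No paired analysis was possible because the tumours share no numbers. Some overlapping genes changed sign. The gene Arhgef15 read -0.15 with limma-voom and -0.059 with total counts, and Ptprc -0.023 with total counts. Without 1 tumour, the ranges were -0.40 to 0.74 for Arhgef15, -0.58 to 1.21 for Ptprc, -0.032 to 0.58 for Ets1, -0.037 to 1.25 for Fli1, -0.15 to 3.05 for Fam83g, -0.022 to 2.60 for Galnt3, -0.46 to 2.53 for Palmd, -1.30 to 0.92 for Fcer1g, -1.14 to 0.65 for Lcp1, -0.24 to 2.03 for Gp1ba, -0.60 to 1.94 for Gpr182, -0.44 to 1.10 for Itgb3 and -0.32 to 0.81 for Pf4. The causes were not tested. Both the small number of tumours and the choice of tool bear on which genes were called.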

Other observations

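Gpr182, a receptor of lymphatic and sinusoidal endothelium chosen after its values were seen, had 2.43, 34.0 and 4.08 CPM in LSN tumours 1, 2 and 3, against 4.57 and 5.30 CPM in vehicle tumours 1 and 2, so that LSN tumour 2 stood above all others. Itgb3, an integrin of platelets and of activated endothelium, was also highest there, with 18.3, 62.4 and 9.32 CPM in LSN tumours 1, 2 and 3, against 17.8 and 19.7 CPM in vehicle tumours 1 and 2.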
